A study of Mus musculus with 16 samples.

Results

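Cytochrome P450 genes were read in 16 RNA-seq libraries of mouse colon organoids, which are cultures of colon epithelium grown from crypts. The members were all protein-coding genes whose symbol is Cyp followed by a family number, a subfamily letter and a gene number. Of 54123 genes in the libraries, 93 were members, on 15 chromosomes. No read was found for 29 of them in any library, and 27 had reads but fewer than 10 in all libraries or all but 1. The 37 that reached 10 reads in at least 2 libraries are described, and all 37 passed the low-count filter of the test. For 7 of them (Cyp11a1, Cyp2a5, Cyp2c66, Cyp2c67, Cyp2c69, Cyp3a57 and Cyp4f39) the rule would not be met without 1 of the groups, so their differences from that group are given as values with no test. The counts of calls include them, and leaving these 7 out lowered no count of calls below by more than 2. The organoids came from the proximal or the distal colon of 2 female mice, 8 weeks old, which were heterozygous for a Cre-inducible BRAF V600E allele and for a tdTomato reporter. No Cre step is described for the organoids used here, so all groups carry both alleles uninduced. Lentivirus brought in Cas9 with Scramble-sgRNA, the control, or with Cdx2-sgRNA, which targets the homeobox factor that specifies intestinal epithelium. The Cdx2-sgRNA organoids grew from single cells with frameshifts in both alleles, so each such line is 1 clone, and no such step is described for Scramble-sgRNA organoids. After 4 months of culture all organoids spent 2 days in WENR-plus medium, which holds Wnt3a, EGF, Noggin and R-spondin 1, and then 3 days in WENR-plus or in WENR-minus medium, which lacks them. This gives 8 groups of 2 libraries, 1 per mouse.

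P450 enzymes are haem proteins that insert an atom of molecular oxygen into a substrate, with electrons handed over by P450 oxidoreductase in the endoplasmic reticulum or by ferredoxin in mitochondria. Families 1 to 4 mostly oxidize drugs, dietary chemicals, eicosanoids and fatty acids, while other families make or break down sterols, bile acids, vitamin D and retinoic acid. Liver and the absorptive cells of the gut are their best known sites, and many members of families 1 to 3 are induced through receptors such as AhR, PXR (Nr1i2) and CAR (Nr1i3).

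Total estimated counts ranged from 12465194 to 18922143 per library. Levels are given as CPM, counts scaled to library size, and levels of different genes are compared only in TPM, which takes transcript length into account. Cdx2 itself measured 142 and 127 CPM in WENR-plus and 203 and 151 CPM in WENR-minus proximal Scramble-sgRNA organoids, and 29.9 and 33.3 and 73.9 and 71.0 CPM in the matching Cdx2-sgRNA organoids. In distal organoids it was 76.8 and 67.9 and 112 and 110.0 CPM with Scramble-sgRNA and 62.2 and 50.2 and 126 and 86.1 CPM with Cdx2-sgRNA. The transcript was lower with Cdx2-sgRNA in proximal organoids in both media (-2.09 ± 0.21, edgeR adjusted p = 5.48e-05 in WENR-plus, -1.29 ± 0.20, edgeR adjusted p = 0.000679 in WENR-minus, log2 fold changes ± SE). It missed the threshold in distal organoids (-0.36 ± 0.20, edgeR adjusted p = 0.857 and -0.07 ± 0.20, edgeR adjusted p = 0.876), and frameshifted transcripts are still counted, so RNA does not check the edit there. Epithelial markers were present in all 16 libraries (7 genes, 2461 to 12810 CPM summed), whereas 6 fibroblast markers summed to at most 1.11 CPM, 4 endothelial markers to at most 2.00 CPM and 6 immune markers to at most 10.4 CPM. The 6 hepatocyte markers summed to 95.7 to 210.1 CPM in WENR-plus and 87.5 to 131 CPM in WENR-minus distal Cdx2-sgRNA organoids, and to 12.4 to 25.4 and 20.6 to 39.1 CPM in distal Scramble-sgRNA ones. In proximal organoids they summed to 1.86 to 3.43 and 8.61 to 20.3 CPM with Scramble-sgRNA and 2.01 to 2.32 and 25.0 to 31.6 CPM with Cdx2-sgRNA. Fgb, a defining one, was at 0 in 15 of the 16 libraries, Alb made up most of the WENR-plus distal sums, and the part of this list in the P450 differences was not tested.

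The promoters of 6 members are printed because they carry the patterns that recur below: 5 genes of the Cyp2c cluster that differ in region or level, and Cyp2d26, the Cyp2d gene with the highest TPM averaged over the 16 libraries. Each is the RefSeq window on GRCm38.p6 from 250 bases before to 50 bases after the gene's start, read 5′ to 3′ on the gene's strand. Capitals mark matches, on either strand, to a pair of motifs. These are the core TTTAT bound by CDX factors (both short runs, in capitals also as ATAAA) and the HNF4 site TGNACTTTG (the longer runs).
Cyp2c55 (chr19:39006769-39007068, plus strand): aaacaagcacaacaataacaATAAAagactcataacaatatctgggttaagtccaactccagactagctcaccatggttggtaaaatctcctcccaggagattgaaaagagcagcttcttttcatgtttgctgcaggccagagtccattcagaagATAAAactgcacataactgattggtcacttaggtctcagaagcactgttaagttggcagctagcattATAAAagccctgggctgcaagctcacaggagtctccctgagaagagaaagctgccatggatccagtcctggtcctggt
Cyp2c65 (chr19:39060756-39061055, plus strand): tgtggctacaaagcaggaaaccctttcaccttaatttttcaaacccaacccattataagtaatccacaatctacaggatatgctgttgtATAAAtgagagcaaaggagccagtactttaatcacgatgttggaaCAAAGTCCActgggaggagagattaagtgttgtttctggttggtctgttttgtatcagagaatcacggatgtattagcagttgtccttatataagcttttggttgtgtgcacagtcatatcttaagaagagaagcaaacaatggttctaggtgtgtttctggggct
Cyp2c66 (chr19:39113648-39113947, plus strand): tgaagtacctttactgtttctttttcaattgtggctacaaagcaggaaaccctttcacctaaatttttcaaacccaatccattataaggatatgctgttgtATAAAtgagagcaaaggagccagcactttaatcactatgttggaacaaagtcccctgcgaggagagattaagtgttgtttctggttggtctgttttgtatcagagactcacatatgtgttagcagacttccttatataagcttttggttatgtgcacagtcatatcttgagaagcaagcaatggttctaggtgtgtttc
Cyp2c68 (chr19:39741052-39741351, minus strand): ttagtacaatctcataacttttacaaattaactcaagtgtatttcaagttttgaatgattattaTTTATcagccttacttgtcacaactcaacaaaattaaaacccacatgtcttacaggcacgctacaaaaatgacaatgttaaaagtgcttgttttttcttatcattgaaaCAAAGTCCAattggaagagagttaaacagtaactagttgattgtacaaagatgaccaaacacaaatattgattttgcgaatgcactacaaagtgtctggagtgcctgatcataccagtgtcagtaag
Cyp2c70 (chr19:40187237-40187536, minus strand): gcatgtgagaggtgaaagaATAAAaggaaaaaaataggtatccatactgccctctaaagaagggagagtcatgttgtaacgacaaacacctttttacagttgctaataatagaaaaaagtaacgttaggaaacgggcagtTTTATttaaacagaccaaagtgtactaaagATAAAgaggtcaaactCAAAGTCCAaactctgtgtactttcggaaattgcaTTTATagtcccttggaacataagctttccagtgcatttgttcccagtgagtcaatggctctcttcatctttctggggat
Cyp2d26 (chr15:82794196-82794495, minus strand): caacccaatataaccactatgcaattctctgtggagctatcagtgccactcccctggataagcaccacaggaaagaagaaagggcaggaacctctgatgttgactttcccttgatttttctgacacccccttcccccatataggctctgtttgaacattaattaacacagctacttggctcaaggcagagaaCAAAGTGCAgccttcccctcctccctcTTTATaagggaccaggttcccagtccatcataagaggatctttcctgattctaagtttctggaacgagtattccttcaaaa

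A window was found for 31 of the 37 described members. TTTAT stood in the windows of 19 of the 31 members and in 40.0% of all 32851 windows. Some of its matches lie inside the letters TATAAA, as in a TATA box but at any distance from the start. TGNACTTTG stood in the windows of 6 members (Cyp2c65, Cyp2c67, Cyp2c68, Cyp2c69, Cyp2c70 and Cyp2d26) and in 1.4% of all windows. A member was counted when any of its windows matched, and some have several, whereas the percentages are over single windows. The Cyp2c genes arose by duplication and share sequence, so their matches are not separate observations. Cyp2c55, the most abundant member, has no HNF4 match in this window and 3 matches to the CDX core, 1 of them inside TATAAA. A match is a run of letters, not a measured binding site.

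Together the 93 members made up 600.1 and 472 TPM in WENR-plus and 3397 and 3785 TPM in WENR-minus proximal Scramble-sgRNA organoids. The distal sums were 516 and 374 against 4024 and 4224 TPM with Scramble-sgRNA, and 558 and 479.7 against 3745 and 4188 TPM with Cdx2-sgRNA. Proximal Cdx2-sgRNA organoids stayed at 348 and 573 TPM in WENR-plus and 523 and 572 TPM in WENR-minus. P450 transcripts were thus several times more abundant after factor withdrawal in 3 of the 4 kinds of organoid, with no overlap between media, and the sums of proximal Cdx2-sgRNA organoids overlapped between the media. Cyp2c55 alone accounted for 59.4 and 67.3% of P450 TPM in WENR-minus proximal Scramble-sgRNA organoids and 64.7 and 74.2% in the distal ones, but for 1.70 and 1.45% in WENR-minus proximal Cdx2-sgRNA organoids, where Cyp2s1 held 65.4 and 64.9%. Averaged over the 16 libraries, the 5 members with the highest TPM were Cyp2c55 (1080 TPM), Cyp2s1 (154), Cyp2d26 (80.2), Cyp2c65 (75.6) and Cyp4f14 (64.9). The order differed by group. In WENR-plus proximal Cdx2-sgRNA organoids Cyp1b1 stood at 99.0 and 207 TPM, while Cyp2c65 was at 0.826 and 0.636 TPM and Cyp4f14 at 0.600 and 0.488 TPM. These are transcripts of bulk cultures, in which more cells of a type and more RNA per cell cannot be told apart.

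**Figure D1:**
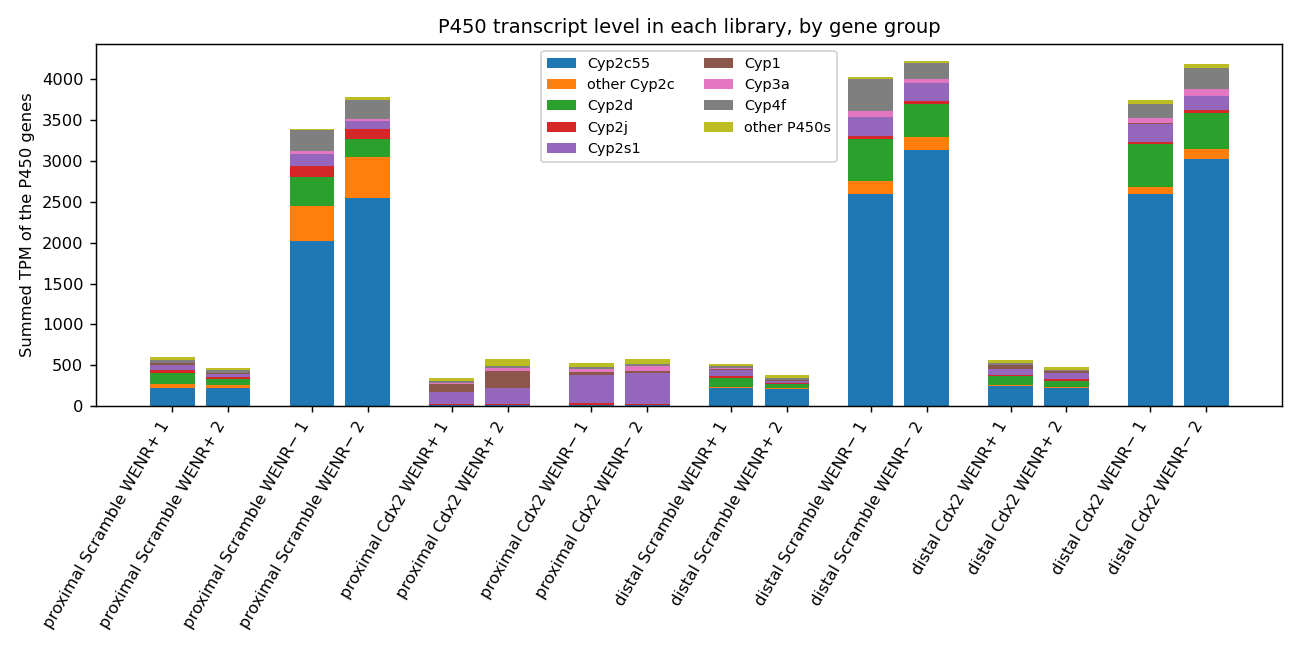
Summed TPM of the P450 genes in each of the 16 libraries (bars, 1 per library, replicates 1 and 2 side by side), split by gene group. Cyp2c55 fills most of the tall bars, and proximal Cdx2-sgRNA bars stay at 523 and 572 TPM in WENR-minus.

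The first question was how P450 genes respond when the Wnt, EGF, Noggin and R-spondin signals are withdrawn. In proximal Scramble-sgRNA organoids 16 of 37 members rose and 2 fell (adjusted p under 0.05 and a log2 fold change over 1 in size), against a background of 17% of the 15289 genes tested, 8.73% higher and 8.24% lower. The median member had a log2 fold change of 1.82, beside -0.06 over all genes tested. In distal Scramble-sgRNA organoids 19 rose and 3 fell (background 26.4%, 12.2% higher and 14.2% lower, median 2.47 beside -0.11). Distal Cdx2-sgRNA organoids gave 18 and 4 (background 33.1%, 14.9% higher and 18.1% lower, median 1.93 beside -0.10). In proximal Cdx2-sgRNA organoids 1 member rose, Cyp3a13, and 1 fell, Cyp1b1 (background 6.4%, 3.42% higher and 2.98% lower, median -0.01 beside -0.03). Without proximal Cdx2-sgRNA WENR-plus replicate 1 that count was 4 (1211 of 16165 genes called). Fitting only the 4 libraries compared it was 0, as it was for all 13518 genes tested in that fit. Colonocyte markers were higher in WENR-minus in all 4 kinds of organoid, proximal Cdx2-sgRNA included. Their 10 genes summed to 1135 to 1175 CPM in WENR-plus and 10220 to 14320 CPM in WENR-minus proximal Scramble-sgRNA organoids. In the same order they summed to 1628 to 1873 and 11170 to 16090 in distal Scramble-sgRNA, 1709 to 2248 and 23020 to 23600 in distal Cdx2-sgRNA, and 461 to 542 and 1269 to 2731 in proximal Cdx2-sgRNA organoids. Goblet cell markers (7 genes) summed, in WENR-plus and WENR-minus, to 842 to 1362 and 6280 to 7484 CPM in proximal Scramble-sgRNA, 980.4 to 1777 and 5895 to 11060 in distal Scramble-sgRNA, 935 to 4063 and 5892 to 15760 in distal Cdx2-sgRNA, and 36.8 to 50.3 and 54.1 to 73.5 in proximal Cdx2-sgRNA organoids. The 5 stem cell markers were lower in WENR-minus in all 4 kinds of organoid, with 406 to 422 and 134 to 189 CPM in proximal Scramble-sgRNA, 360.1 to 413 and 139 to 164 in distal Scramble-sgRNA, 312 to 493 and 92.2 to 97.8 in distal Cdx2-sgRNA, and 490.4 to 546 and 122 to 190.3 in proximal Cdx2-sgRNA organoids. The 6 proliferation markers fell from 1310 to 1518 to 309.7 to 533 CPM in proximal Scramble-sgRNA organoids and measured 619 to 778 and 667 to 766 CPM in the proximal Cdx2-sgRNA ones. In distal organoids they measured 1376 to 1538 and 379 to 554 CPM with Scramble-sgRNA and 1109 to 1523 and 207.5 to 301 CPM with Cdx2-sgRNA. The part that the makeup of cell types has in the P450 changes was not tested.

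The second question was what Cdx2-sgRNA did in each region. In proximal organoids 3 members were higher and 16 lower than with Scramble-sgRNA in WENR-minus (background 21.2%, 9.04% higher and 12.1% lower), and 8 were higher and 12 lower in WENR-plus (background 15.9%, 6.93% higher and 8.94% lower). The 16 lower ones, and the WENR-minus calls that held below, include Cyp2c66, which was chosen through 1 of the groups compared. In distal organoids 1 was higher and 2 lower in WENR-minus (background 5.25%, 2.24% higher and 3% lower). None was called in WENR-plus by edgeR (background 0.262%, 0.137% higher and 0.124% lower), where 2 members had an unadjusted p under 0.05 and DESeq2 also called 0. Of the proximal calls, 14 of 19 (WENR-minus) and 10 of 20 (WENR-plus) held whichever library was left out. The WENR-plus count fell to 11 without proximal Scramble-sgRNA replicate 1 or proximal Cdx2-sgRNA replicate 2, and to 12 without proximal Scramble-sgRNA replicate 2. The distal WENR-minus count was 0 without distal Cdx2-sgRNA replicate 1 or 2 or Scramble-sgRNA replicate 2, and 6 by DESeq2. The effect of Cdx2-sgRNA differed between the regions for 17 members in WENR-minus, 2 of them higher and 15 lower in proximal relative to distal organoids (background 14.3%, 5.17% higher and 9.08% lower), and for 9 in WENR-plus, 2 higher and 7 lower (background 4.98%, 1.22% higher and 3.76% lower). In proximal organoids the goblet cell markers were lower with Cdx2-sgRNA and summed to 6280 to 7484 CPM with Scramble-sgRNA and 54.1 to 73.5 CPM with Cdx2-sgRNA in WENR-minus. Their 6 enteroendocrine counterparts summed to 116 to 191 and 0.846 to 1.86 CPM. The 5 tuft cell markers went the other way, with 0.0956 to 0.473 CPM in WENR-plus and 0 to 0.313 CPM in WENR-minus with Scramble-sgRNA and 2.90 to 11.3 and 1.11 to 6.35 CPM with Cdx2-sgRNA, highest in replicate 2. The part of these cells in the P450 differences was not tested.

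Between the regions, 4 members were higher and 11 lower in proximal organoids than in distal ones with Scramble-sgRNA in WENR-minus (background 6.08%, 2.88% higher and 3.2% lower), and 2 and 2 in WENR-plus (background 1.75%, 0.68% higher and 1.07% lower). With Cdx2-sgRNA, 4 were higher and 20 lower in WENR-minus (background 34.6%, 18.1% higher and 16.5% lower) and 6 and 12 in WENR-plus (background 17%, 7.4% higher and 9.57% lower). The Scramble-sgRNA count of 15 in WENR-minus fell to 7 without replicate 2 of either region, and 5 of the 15 held whichever library was left out (Cyp2c65, Cyp2c68, Cyp2c70, Cyp2d12 and Cyp4f16). The count of 4 in WENR-plus fell to 2 without proximal Scramble-sgRNA replicate 1 and was 8 by DESeq2. These comparisons share libraries with those between guides and are not independent of them.

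**Figure D2:**
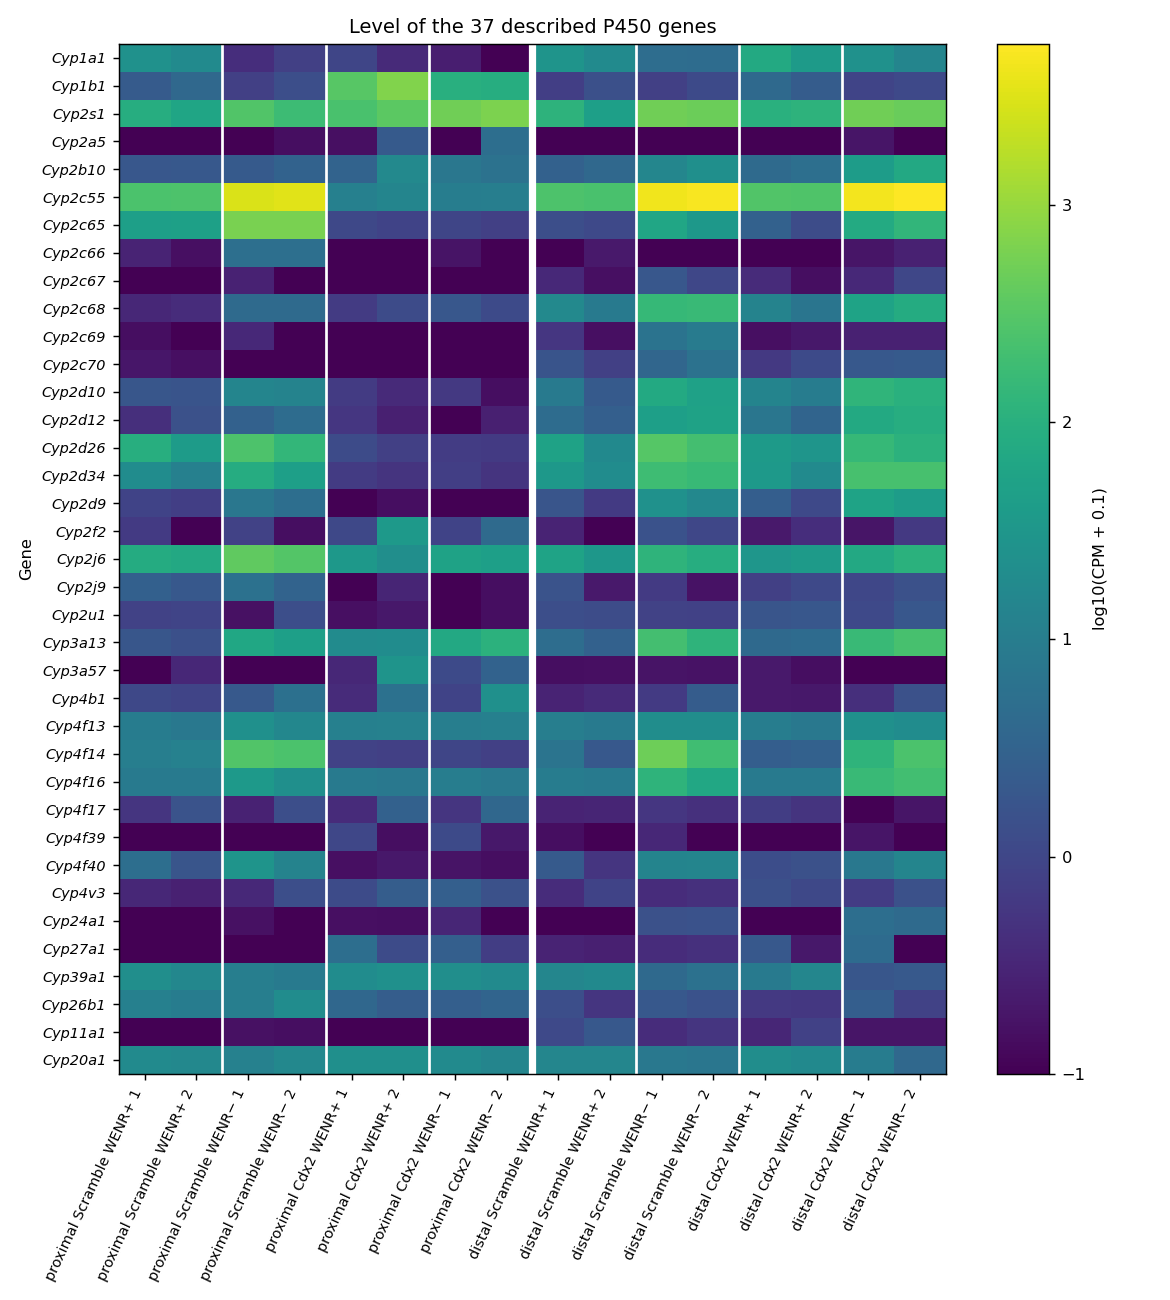
Level of the 37 described P450 genes (rows, ordered by family and role) in the 16 libraries (columns), as log10(CPM + 0.1). The proximal Cdx2-sgRNA columns are darker than the proximal Scramble-sgRNA ones for Cyp2c55, Cyp2c65, Cyp2d26 and Cyp2d34 and brighter for Cyp1b1.

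The Cyp2c enzymes oxidize arachidonic acid and other fatty acids as well as drugs, and 7 of their genes, from Cyp2c55 (chr19:39007019-39042693, plus strand) to Cyp2c70 (chr19:40153353-40187333, minus strand), were described (GENCODE vM21 on GRCm38). Cyp2c55, which hydroxylates arachidonic acid and is known from the large intestine, measured 245 and 257 in WENR-plus and 2954 and 3351 in WENR-minus proximal Scramble-sgRNA organoids, in CPM. Its distal levels were 262 and 244 in WENR-plus and 4366 and 4921 in WENR-minus distal Scramble-sgRNA organoids, and 278 and 271 in WENR-plus and 4463 and 5497 in WENR-minus distal Cdx2-sgRNA organoids. In proximal Cdx2-sgRNA organoids it was 11.6 and 14.5 CPM in WENR-plus and 9.95 and 10.6 CPM in WENR-minus, below every other library and with no rise on withdrawal. Withdrawal gave log2 fold changes of 3.65 ± 0.18, edgeR adjusted p = 4.59e-06, in proximal Scramble-sgRNA, 4.20 ± 0.18, edgeR adjusted p = 1.29e-06, in distal Scramble-sgRNA and 4.18 ± 0.18, edgeR adjusted p = 9.04e-07, in distal Cdx2-sgRNA organoids, but -0.35 ± 0.17, edgeR adjusted p = 0.21, in proximal Cdx2-sgRNA organoids. This withdrawal effect differed between the proximal guides (-4.00 ± 0.24, edgeR adjusted p = 4.69e-05). Cdx2-sgRNA against Scramble-sgRNA was -4.26 ± 0.19, edgeR adjusted p = 1.62e-07, in proximal WENR-plus and -8.26 ± 0.22, edgeR adjusted p = 1.98e-09, in proximal WENR-minus organoids, whereas in distal WENR-minus organoids it was 0.10 ± 0.16, edgeR adjusted p = 0.743. The difference of guide effects between regions was -8.36 ± 0.26, edgeR adjusted p = 1.04e-08, in WENR-minus and -4.38 ± 0.24, edgeR adjusted p = 3.08e-06, in WENR-plus medium. Proximal and distal Scramble-sgRNA organoids did not differ past the threshold in Cyp2c55 (-0.56 ± 0.16, edgeR adjusted p = 0.0517 in WENR-minus).

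The genes next to it split by region. Cyp2c65, an intestinal family member, measured 46.6 and 50.1 in WENR-plus and 600.3 and 622 in WENR-minus proximal Scramble-sgRNA organoids, in CPM, and 1.25 and 1.02 in WENR-plus and 64.8 and 33.6 in WENR-minus distal Scramble-sgRNA organoids. With Cdx2-sgRNA it was 0.986 and 0.793 in WENR-plus and 0.891 and 0.688 in WENR-minus proximal Cdx2-sgRNA organoids, and 2.81 and 1.16 in WENR-plus and 79.5 and 134 in WENR-minus distal Cdx2-sgRNA organoids. It was therefore proximal-high in both media with Scramble-sgRNA (proximal against distal 5.40 ± 0.45, edgeR adjusted p = 9.74e-05 in WENR-plus and 3.64 ± 0.38, edgeR adjusted p = 0.000356 in WENR-minus) and distal-high with Cdx2-sgRNA in WENR-minus (-7.08 ± 0.49, edgeR adjusted p = 1.38e-06). It rose on withdrawal in both regions with Scramble-sgRNA (3.66 ± 0.38, edgeR adjusted p = 0.000198 proximal, 5.42 ± 0.45, edgeR adjusted p = 2.65e-05 distal). In proximal organoids Cdx2-sgRNA changed it by -5.76 ± 0.47, edgeR adjusted p = 1.31e-05, in WENR-plus and -9.61 ± 0.53, edgeR adjusted p = 5.19e-07, in WENR-minus. Cyp2c66, whose transcripts share 32.6% of their 31-base words with Cyp2c65, was 0.191 and 0.0592 CPM in WENR-plus and 5.27 and 5.21 CPM in WENR-minus proximal Scramble-sgRNA organoids and at most 0.167 CPM in the other 12 libraries. Its only libraries with 10 or more reads were these WENR-minus ones, which chose it, so no test is given. They are also the libraries with the most Cyp2c65 reads, so the split of reads between these copies is uncertain. The promoters of these neighbours, printed above, differ in that the one of Cyp2c65 holds the HNF4 letters and the one of Cyp2c66 does not.

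Cyp2c68 ran the other way along the colon. It measured 0.239 and 0.296 in WENR-plus and 4.34 and 4.22 in WENR-minus proximal Scramble-sgRNA organoids, in CPM, and 17.1 and 8.44 in WENR-plus and 147 and 163 in WENR-minus distal Scramble-sgRNA organoids. With Cdx2-sgRNA it was 0.580 and 1.11 in WENR-plus and 1.86 and 1.06 in WENR-minus proximal Cdx2-sgRNA organoids, and 12.8 and 6.93 in WENR-plus and 57.2 and 83.8 in WENR-minus distal Cdx2-sgRNA organoids. Every distal library lay above every proximal library of the same medium. Proximal against distal gave -5.55 ± 0.54, edgeR adjusted p = 0.000294, in WENR-plus and -5.17 ± 0.44, edgeR adjusted p = 7.31e-05, in WENR-minus Scramble-sgRNA organoids, and -5.62 ± 0.47, edgeR adjusted p = 5.44e-06, in WENR-minus Cdx2-sgRNA organoids. It rose on withdrawal with Scramble-sgRNA in both regions (3.98 ± 0.56, edgeR adjusted p = 0.000744 proximal, 3.60 ± 0.40, edgeR adjusted p = 8.23e-05 distal) and in distal Cdx2-sgRNA organoids (2.83 ± 0.39, edgeR adjusted p = 0.000137). Cyp2c70, which makes muricholic acids in rodent liver, was 1.60 and 0.699 CPM in WENR-plus and 3.54 and 5.95 CPM in WENR-minus distal Scramble-sgRNA organoids, 0.516 and 1.06 and 1.95 and 2.09 CPM with distal Cdx2-sgRNA, and at most 0.0956 CPM in the 8 proximal libraries. In WENR-minus Scramble-sgRNA organoids it was at least 56.4-fold lower in proximal than in distal ones (edgeR adjusted p = 0.00215). Cyp2c69 was 0.451 and 0.0538 CPM in WENR-plus and 6.31 and 9.25 CPM in WENR-minus distal Scramble-sgRNA organoids. In the other 12 libraries it reached at most 0.248 CPM, distal Cdx2-sgRNA in WENR-minus included (0.169 and 0.167 CPM). Its only libraries with 10 or more reads were the 2 that chose it, so no test is given. Cyp2c67 was highest in the same distal Scramble-sgRNA organoids in WENR-minus, at 1.85 and 0.932 CPM, and was called between regions in WENR-minus Cdx2-sgRNA organoids (at least 6.36-fold lower in proximal, edgeR adjusted p = 0.0347). Cyp2c67, Cyp2c68 and Cyp2c69 share 55.5, 53.6 and 57.7% of their 31-base words with Cyp2c40, so the split of reads among these copies is uncertain. The call of Cyp2c68 was lost between guides in proximal WENR-minus organoids without Scramble-sgRNA replicate 1 or 2 or Cdx2-sgRNA replicate 2 (edgeR adjusted p up to 0.165). That of Cyp2c68 was also lost for the difference of withdrawal effects without each of 7 of the 8 libraries (edgeR adjusted p up to 0.174). The call of Cyp2c67 was lost between regions in Cdx2-sgRNA WENR-minus organoids without proximal replicate 1 or 2 or distal replicate 2 (edgeR adjusted p up to 0.152). The call of Cyp2c70 was lost on withdrawal in distal Scramble-sgRNA organoids without WENR-plus replicate 2 or WENR-minus replicate 2 (edgeR adjusted p up to 0.15).

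**Figure D3:**
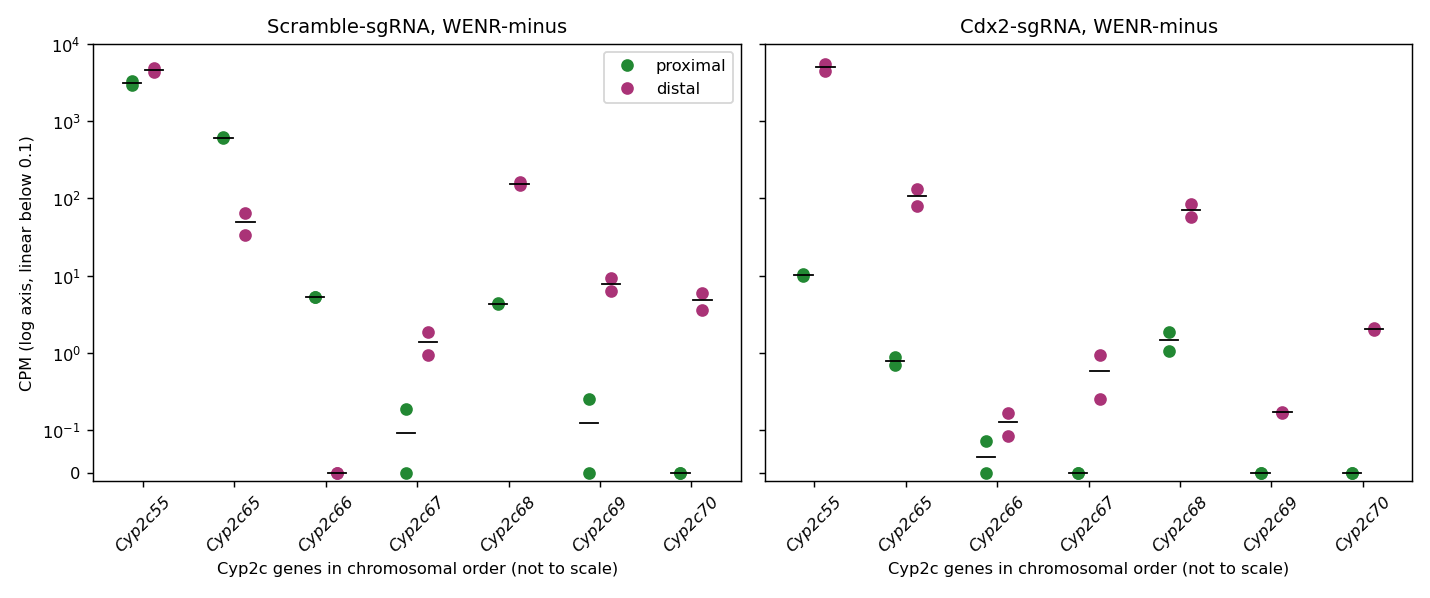
CPM of the 7 described Cyp2c genes in WENR-minus medium, in chromosomal order, for proximal (green) and distal (purple) organoids. Points are single libraries and bars their mean. Cyp2c65 and Cyp2c66 are higher in proximal and Cyp2c68, Cyp2c69 and Cyp2c70 in distal Scramble-sgRNA organoids. The split of reads is uncertain between Cyp2c65 and Cyp2c66 and among Cyp2c67, Cyp2c68 and Cyp2c69.

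The Cyp2d genes, whose human relative CYP2D6 oxidizes many drugs, lie on chromosome 15, and 5 of them were described. Cyp2d26 (chr15:82790101-82794294, minus strand) measured 93.8 and 39.9 in WENR-plus and 263 and 139 in WENR-minus proximal Scramble-sgRNA organoids, in CPM, and 53.6 and 17.8 in WENR-plus and 303 and 213 in WENR-minus distal Scramble-sgRNA organoids. With Cdx2-sgRNA it was 1.102 and 0.687 in WENR-plus and 0.594 and 0.529 in WENR-minus proximal Cdx2-sgRNA organoids, and 38.5 and 29.5 in WENR-plus and 151 and 109 in WENR-minus distal Cdx2-sgRNA organoids. Its proximal Cdx2-sgRNA libraries lay far below all others in both media (-6.22 ± 0.69, edgeR adjusted p = 0.000121 in WENR-plus, -8.47 ± 0.76, edgeR adjusted p = 1.59e-05 in WENR-minus). Cyp2d34 was 19.7 and 11.4 in WENR-plus and 85.8 and 47.4 in WENR-minus proximal Scramble-sgRNA organoids, and 33.1 and 20.4 in WENR-plus and 185 and 154 in WENR-minus distal Scramble-sgRNA organoids. Its Cdx2-sgRNA levels were 0.580 and 0.423 in WENR-plus and 0.668 and 0.423 in WENR-minus proximal Cdx2-sgRNA organoids, and 34.9 and 18.5 in WENR-plus and 233 and 229 in WENR-minus distal Cdx2-sgRNA organoids. The same low level in proximal Cdx2-sgRNA organoids was seen (-4.95 ± 0.52, edgeR adjusted p = 8.65e-05 in WENR-plus, -6.95 ± 0.53, edgeR adjusted p = 5.12e-06 in WENR-minus), and it rose on withdrawal in the other 3 kinds of organoid (2.09 ± 0.38, edgeR adjusted p = 0.00246 proximal Scramble-sgRNA, 2.66 ± 0.39, edgeR adjusted p = 0.000353 distal Scramble-sgRNA, 3.11 ± 0.40, edgeR adjusted p = 8.24e-05 distal Cdx2-sgRNA).

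Cyp2d10, Cyp2d12 and Cyp2d9 had higher values in every distal library of WENR-minus medium than in the proximal ones. Cyp2d10 measured 1.77 and 1.60 in WENR-plus and 14.5 and 13.2 in WENR-minus proximal Scramble-sgRNA organoids, in CPM, and 0.580 and 0.264 in WENR-plus and 0.520 and 0.0529 in WENR-minus proximal Cdx2-sgRNA organoids. Distal levels of Cyp2d10 were 8.76 and 2.10 in WENR-plus and 74.6 and 50.7 in WENR-minus distal Scramble-sgRNA organoids, and 13.8 and 9.68 in WENR-plus and 127 and 103 in WENR-minus distal Cdx2-sgRNA organoids. Cyp2d12 measured 0.335 and 1.42 in WENR-plus and 2.91 and 4.59 in WENR-minus proximal Scramble-sgRNA organoids, and 0.464 and 0.159 in WENR-plus and 0 and 0.159 in WENR-minus proximal Cdx2-sgRNA organoids. Distal levels of Cyp2d12 were 4.61 and 2.63 in WENR-plus and 46.4 and 53.3 in WENR-minus distal Scramble-sgRNA organoids, and 7.28 and 3.33 in WENR-plus and 77.1 and 88.5 in WENR-minus distal Cdx2-sgRNA organoids. Cyp2d9 was 0.812 and 0.651 in WENR-plus and 7.44 and 5.00 in WENR-minus proximal Scramble-sgRNA organoids, and 0 and 0.0529 in WENR-plus and 0 and 0 in WENR-minus proximal Cdx2-sgRNA organoids. Distal levels of Cyp2d9 were 1.70 and 0.538 in WENR-plus and 24.5 and 16.3 in WENR-minus distal Scramble-sgRNA organoids, and 2.46 and 1.00 in WENR-plus and 57.0 and 41.3 in WENR-minus distal Cdx2-sgRNA organoids. All 3 had their highest values in WENR-minus distal Cdx2-sgRNA organoids and their lowest in proximal Cdx2-sgRNA organoids. On withdrawal Cyp2d10 rose by 3.03 ± 0.60, edgeR adjusted p = 0.00353, in proximal Scramble-sgRNA, 3.52 ± 0.57, edgeR adjusted p = 0.000622, in distal Scramble-sgRNA and 3.29 ± 0.55, edgeR adjusted p = 0.000523, in distal Cdx2-sgRNA organoids, as log2 fold changes. Cyp2d12 was lower in proximal than in distal WENR-minus Scramble-sgRNA organoids (-3.73 ± 0.56, edgeR adjusted p = 0.00274). In WENR-minus proximal organoids the level with Cdx2-sgRNA was lower for Cyp2d10 (-5.73 ± 0.78, edgeR adjusted p = 0.000291), Cyp2d12 (41.2-fold (95% counting interval 13.8 to 202) lower, edgeR adjusted p = 0.00125) and Cyp2d9 (at least 66.0-fold lower, edgeR adjusted p = 0.000168), the last against 0 reads. Cyp2d10 shares 50.2% and Cyp2d9 34.8% of their 31-base words with other genes, so their reads may be split among copies. The call of Cyp2d26 was lost on withdrawal in proximal Scramble-sgRNA organoids without WENR-minus replicate 1 or WENR-plus replicate 2 (edgeR adjusted p up to 0.246). That of Cyp2d26 was also lost on withdrawal in distal Cdx2-sgRNA organoids without WENR-minus replicate 1 or WENR-plus replicate 2 (edgeR adjusted p up to 0.0694). The call of Cyp2d12 was lost on withdrawal in proximal Scramble-sgRNA organoids without WENR-plus replicate 1 or WENR-minus replicate 2 (edgeR adjusted p up to 0.152). The call of Cyp2d9 was lost between guides in proximal WENR-plus organoids without Scramble-sgRNA replicate 1 or Cdx2-sgRNA replicate 1 or 2 (edgeR adjusted p up to 0.077). The call of Cyp2d10 was lost between regions in Scramble-sgRNA WENR-minus organoids without any 1 of the 4 libraries (edgeR adjusted p up to 0.16). The call of Cyp2d34 was lost between regions in Scramble-sgRNA WENR-minus organoids without distal replicate 1 or 2 or proximal replicate 2 (edgeR adjusted p up to 0.269).

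Cyp2j6, an epoxygenase of arachidonic and linoleic acid expressed in the gut, measured 82.8 and 73.0 in WENR-plus and 381 and 297 in WENR-minus proximal Scramble-sgRNA organoids, in CPM, and 56.4 and 31.9 in WENR-plus and 120.4 and 89.7 in WENR-minus distal Scramble-sgRNA organoids. With Cdx2-sgRNA it was 33.7 and 21.6 in WENR-plus and 54.0 and 47.4 in WENR-minus proximal Cdx2-sgRNA organoids, and 30.3 and 37.9 in WENR-plus and 73.5 and 105 in WENR-minus distal Cdx2-sgRNA organoids. It was lower with Cdx2-sgRNA in proximal organoids (-1.49 ± 0.31, edgeR adjusted p = 0.00521 in WENR-plus, -2.74 ± 0.32, edgeR adjusted p = 9.94e-05 in WENR-minus). It rose on withdrawal in proximal Scramble-sgRNA organoids by 2.12 ± 0.31, edgeR adjusted p = 0.000842, and was proximal-high in WENR-minus (1.69 ± 0.31, edgeR adjusted p = 0.00697). Its neighbour Cyp2j9 had at most 5.89 CPM and was 141-fold (95% counting interval 25.0 to 5611) lower with Cdx2-sgRNA in WENR-minus proximal organoids (edgeR adjusted p = 0.00528). The call of Cyp2j6 was lost between guides in proximal WENR-plus organoids without Cdx2-sgRNA replicate 2 (edgeR adjusted p up to 0.0509). That of Cyp2j6 was also lost on withdrawal in distal Scramble-sgRNA organoids without WENR-minus replicate 1 or WENR-plus replicate 2 (edgeR adjusted p up to 0.0599). Cyp2j6 further lost it between regions in Scramble-sgRNA WENR-minus organoids without distal replicate 2 (edgeR adjusted p up to 0.0725). The call of Cyp2j9 was lost between guides in proximal WENR-plus organoids without Scramble-sgRNA replicate 1 or 2 or Cdx2-sgRNA replicate 1 (edgeR adjusted p up to 0.12).

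Family 4 enzymes oxidize the ends of fatty acids, and Cyp4f14 (chr17:32905070-32917342, minus strand) inactivates leukotriene B4 by this reaction. Cyp4f14 measured 10.7 and 11.9 in WENR-plus and 279 and 251 in WENR-minus proximal Scramble-sgRNA organoids, in CPM, and 6.46 and 1.88 in WENR-plus and 498 and 192 in WENR-minus distal Scramble-sgRNA organoids. With Cdx2-sgRNA it was 0.754 and 0.687 in WENR-plus and 0.891 and 0.688 in WENR-minus proximal Cdx2-sgRNA organoids, and 2.46 and 2.80 in WENR-plus and 120.5 and 245 in WENR-minus distal Cdx2-sgRNA organoids. The rise on withdrawal was 4.55 ± 0.57, edgeR adjusted p = 0.000431, in proximal Scramble-sgRNA, 6.36 ± 0.63, edgeR adjusted p = 4.95e-05, in distal Scramble-sgRNA and 6.11 ± 0.63, edgeR adjusted p = 2.4e-05, in distal Cdx2-sgRNA organoids, and none was seen in proximal Cdx2-sgRNA organoids (0.11 ± 0.83, edgeR adjusted p = 0.971). Cyp4f16 was 8.65 and 8.76 in WENR-plus and 34.8 and 23.0 in WENR-minus proximal Scramble-sgRNA organoids, and 9.86 and 8.44 in WENR-plus and 120.2 and 68.7 in WENR-minus distal Scramble-sgRNA organoids. With the other guide it was 8.93 and 7.88 in WENR-plus and 10.3 and 8.14 in WENR-minus proximal Cdx2-sgRNA organoids, and 8.60 and 8.78 in WENR-plus and 164 and 200.5 in WENR-minus distal Cdx2-sgRNA organoids. In WENR-plus its 8 libraries ranged from 7.88 to 9.86 CPM. In WENR-minus it was lower in proximal Scramble-sgRNA organoids than in distal ones (-1.71 ± 0.26, edgeR adjusted p = 0.003) and lower still with Cdx2-sgRNA in proximal ones (-1.65 ± 0.27, edgeR adjusted p = 0.000965 against Scramble-sgRNA).

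Cyp4f40 measured 5.07 and 1.66 in WENR-plus and 28.5 and 12.98 in WENR-minus proximal Scramble-sgRNA organoids, and 0.0580 and 0.106 in WENR-plus and 0.0742 and 0.0529 in WENR-minus proximal Cdx2-sgRNA organoids. Distal levels of Cyp4f40 were 2.10 and 0.430 in WENR-plus and 13.6 and 14.3 in WENR-minus distal Scramble-sgRNA organoids, and 1.20 and 1.38 in WENR-plus and 7.70 and 14.5 in WENR-minus distal Cdx2-sgRNA organoids, in CPM. It was 325-fold (95% counting interval 89.6 to 2688) lower with Cdx2-sgRNA in WENR-minus proximal organoids (edgeR adjusted p = 0.000138). Cyp4f13 varied over a narrower range and measured 9.75 and 7.87 in WENR-plus and 24.2 and 15.2 in WENR-minus proximal Scramble-sgRNA organoids, and 11.7 and 11.8 in WENR-plus and 10.5 and 11.4 in WENR-minus proximal Cdx2-sgRNA organoids. Distal levels of Cyp4f13 were 10.5 and 8.77 in WENR-plus and 21.4 and 20.9 in WENR-minus distal Scramble-sgRNA organoids, and 10.2 and 7.72 in WENR-plus and 24.2 and 20.5 in WENR-minus distal Cdx2-sgRNA organoids. It rose on withdrawal in proximal and distal Scramble-sgRNA organoids (1.16 ± 0.24, edgeR adjusted p = 0.00427 and 1.14 ± 0.24, edgeR adjusted p = 0.00279) and in distal Cdx2-sgRNA organoids (1.32 ± 0.24, edgeR adjusted p = 0.00083), and no guide effect on it was called. Cyp4f39 was called in no comparison and reached at most 1.04 CPM. Cyp4f17, called once, was 0.445 and 3.75 CPM in proximal and 0 and 0.0836 CPM in distal WENR-minus Cdx2-sgRNA organoids, which is 56.5-fold (95% counting interval 9.85 to 2262) higher in proximal (edgeR adjusted p = 0.0214). Cyp4v3, a fatty acid hydroxylase, was 0.239 and 0.177 CPM with Scramble-sgRNA and 1.102 and 2.38 CPM with Cdx2-sgRNA in WENR-plus proximal organoids (3.01 ± 0.85, edgeR adjusted p = 0.0245). The call of Cyp4f40 was lost on withdrawal in proximal Scramble-sgRNA organoids without WENR-minus replicate 1 or WENR-plus replicate 2 (edgeR adjusted p up to 0.0984). The call of Cyp4f13 was lost on withdrawal in proximal Scramble-sgRNA organoids without WENR-minus replicate 1, where the log2 fold change was under 1 in size. The call of Cyp4v3 was lost between guides in proximal WENR-plus organoids without Scramble-sgRNA replicate 1 or 2 or Cdx2-sgRNA replicate 2 (edgeR adjusted p up to 0.135). The call of Cyp4f17 was lost between regions in Cdx2-sgRNA WENR-minus organoids without distal replicate 1 or 2 or proximal replicate 2 (edgeR adjusted p up to 0.22). The call of Cyp4f14 was lost for the difference of withdrawal effects without each of 7 of the 8 libraries (edgeR adjusted p up to 0.112). The call of Cyp4f16 was lost for the difference of withdrawal effects without each of 7 of the 8 libraries (edgeR adjusted p up to 0.136).

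Cyp3a13 (chr5:137892932-137921619, minus strand), a Cyp3a gene expressed in the intestine and, as a family 3 enzyme, a broad oxidizer of drugs, rose on withdrawal in all 4 kinds of organoid. It measured 1.77 and 1.36 in WENR-plus and 67.1 and 46.4 in WENR-minus proximal Scramble-sgRNA organoids, in CPM, and 19.4 and 19.8 in WENR-plus and 71.9 and 113 in WENR-minus proximal Cdx2-sgRNA organoids. Its distal levels were 4.86 and 2.85 in WENR-plus and 207 and 124 in WENR-minus distal Scramble-sgRNA organoids, and 4.01 and 4.44 in WENR-plus and 162 and 229 in WENR-minus distal Cdx2-sgRNA organoids. The log2 fold changes on withdrawal were 5.17 ± 0.40, edgeR adjusted p = 7.02e-05, in proximal Scramble-sgRNA and 2.24 ± 0.33, edgeR adjusted p = 0.00285, in proximal Cdx2-sgRNA organoids, then 5.42 ± 0.39, edgeR adjusted p = 2e-05, in distal Scramble-sgRNA and 5.53 ± 0.39, edgeR adjusted p = 4.11e-06, in distal Cdx2-sgRNA organoids. The smaller rise in proximal Cdx2-sgRNA organoids started from a higher level in WENR-plus (3.63 ± 0.39, edgeR adjusted p = 9.42e-05 against Scramble-sgRNA), and the difference of the withdrawal effects was -2.93 ± 0.49, edgeR adjusted p = 0.017. In WENR-minus medium the guides did not differ past the threshold in proximal organoids (0.70 ± 0.32, edgeR adjusted p = 0.115). The call of Cyp3a13 was lost for the difference of withdrawal effects without proximal Scramble-sgRNA WENR-plus replicate 1 or 2 or proximal Scramble-sgRNA WENR-minus replicate 1 (edgeR adjusted p up to 0.0758). That of Cyp3a13 was also lost between regions in Scramble-sgRNA WENR-minus organoids without distal replicate 1 or proximal replicate 2 (edgeR adjusted p up to 0.125). Cyp3a13 further lost it between regions in Cdx2-sgRNA WENR-minus organoids without proximal replicate 1 or distal replicate 2 (edgeR adjusted p up to 0.111).

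Cyp1a1, Cyp1b1 and Cyp2s1 are targets of the aryl hydrocarbon receptor AhR. In WENR-plus proximal organoids Cyp1a1 was lower with Cdx2-sgRNA and the other two were higher. Cyp1a1, which oxidizes planar aromatic compounds and clears AhR ligands, measured 25.1 and 18.8 in WENR-plus and 0.310 and 0.677 in WENR-minus proximal Scramble-sgRNA organoids, in CPM, and 0.870 and 0.264 in WENR-plus and 0.148 and 0 in WENR-minus proximal Cdx2-sgRNA organoids. In distal organoids it was 28.6 and 18.3 in WENR-plus and 4.77 and 4.73 in WENR-minus distal Scramble-sgRNA organoids, and 74.3 and 37.4 in WENR-plus and 25.0 and 14.6 in WENR-minus distal Cdx2-sgRNA organoids. Its levels were lower in WENR-minus than in WENR-plus in all 4 kinds of organoid, with no overlap between the media. The fall was -5.42 ± 0.62, edgeR adjusted p = 0.000282, in proximal Scramble-sgRNA, -2.30 ± 0.50, edgeR adjusted p = 0.0037, in distal Scramble-sgRNA and -1.50 ± 0.47, edgeR adjusted p = 0.0222, in distal Cdx2-sgRNA organoids. Proximal Cdx2-sgRNA organoids held few reads already in WENR-plus (-5.28 ± 0.62, edgeR adjusted p = 0.000178 against Scramble-sgRNA), and there the effect of the guide differed from that in distal organoids (-6.53 ± 0.77, edgeR adjusted p = 0.000735). In distal WENR-minus organoids it was higher with Cdx2-sgRNA (2.05 ± 0.50, edgeR adjusted p = 0.0282). The guide effects also differed between regions in WENR-minus (edgeR adjusted p = 0.0175), with no fold given, since 1 of the groups held 3 reads or fewer and the fitted difference moved by over 1.5 times without proximal Cdx2-sgRNA WENR-minus replicate 1. The distal Cdx2-sgRNA fall was -0.85 without WENR-plus replicate 1. The call of Cyp1a1 was lost on withdrawal in distal Cdx2-sgRNA organoids without WENR-plus replicate 1 or WENR-minus replicate 2 (edgeR adjusted p up to 0.248). That of Cyp1a1 was also lost between guides in distal WENR-minus organoids without any 1 of the 4 libraries (edgeR adjusted p up to 0.17). Cyp1a1 further lost it between regions in Scramble-sgRNA WENR-minus organoids without proximal replicate 1 or 2 (edgeR adjusted p up to 0.0536). Another call of Cyp1a1 was lost for the regional difference of guide effects in WENR-minus without proximal Scramble-sgRNA WENR-minus replicate 2 or proximal Cdx2-sgRNA WENR-minus replicate 2 (edgeR adjusted p up to 0.0959).

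Cyp1b1 (chr17:79701537-79715061, minus strand) hydroxylates oestradiol and polycyclic hydrocarbons. It measured 328 and 706 in WENR-plus and 97.0 and 90.7 in WENR-minus proximal Cdx2-sgRNA organoids, in CPM. In proximal Scramble-sgRNA organoids it was 2.15 and 3.96 CPM in WENR-plus and 0.682 and 1.25 CPM in WENR-minus. The distal values were 0.651 and 1.34 in WENR-plus and 0.693 and 1.07 in WENR-minus distal Scramble-sgRNA organoids, and 4.01 and 2.33 in WENR-plus and 0.846 and 1.00 in WENR-minus distal Cdx2-sgRNA organoids. No library outside the proximal Cdx2-sgRNA groups exceeded 4.01 CPM. Cdx2-sgRNA against Scramble-sgRNA in proximal organoids was 7.41 ± 0.52, edgeR adjusted p = 4.21e-06, in WENR-plus and 6.57 ± 0.53, edgeR adjusted p = 7e-06, in WENR-minus, and the guide effect differed between regions in both media (5.75 ± 0.71, edgeR adjusted p = 0.000944 and 6.51 ± 0.87, edgeR adjusted p = 0.000638). It fell on withdrawal in proximal Cdx2-sgRNA organoids (-2.46 ± 0.40, edgeR adjusted p = 0.0043). Falls were also called in proximal Scramble-sgRNA (-1.62 ± 0.52, edgeR adjusted p = 0.0363) and distal Cdx2-sgRNA organoids (-1.76 ± 0.56, edgeR adjusted p = 0.0224). The call of Cyp1b1 was lost on withdrawal in proximal Scramble-sgRNA organoids without WENR-minus replicate 1 or 2 or WENR-plus replicate 2 (edgeR adjusted p up to 0.255). That of Cyp1b1 was also lost on withdrawal in distal Cdx2-sgRNA organoids without WENR-plus replicate 1 or WENR-minus replicate 1 or 2 (edgeR adjusted p up to 0.16).

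Cyp2s1, an epithelial P450 that metabolizes retinoids and eicosanoids, had high levels in all libraries. It measured 88.6 and 60.5 in WENR-plus and 289 and 177 in WENR-minus proximal Scramble-sgRNA organoids, in CPM, and 241 and 355 in WENR-plus and 518 and 646 in WENR-minus proximal Cdx2-sgRNA organoids. In distal organoids it was 117 and 48.1 in WENR-plus and 523 and 468 in WENR-minus distal Scramble-sgRNA organoids, and 103 and 116 in WENR-plus and 512 and 448 in WENR-minus distal Cdx2-sgRNA organoids. It rose on withdrawal in 3 kinds of organoid (1.64 ± 0.38, edgeR adjusted p = 0.00852 proximal Scramble-sgRNA, 2.58 ± 0.39, edgeR adjusted p = 0.000451 distal Scramble-sgRNA, 2.13 ± 0.39, edgeR adjusted p = 0.000878 distal Cdx2-sgRNA), while in proximal Cdx2-sgRNA organoids the change was 0.97 ± 0.37, edgeR adjusted p = 0.113. It is the only member among the 5 with the highest TPM that was higher with Cdx2-sgRNA in proximal organoids (2.00 ± 0.39, edgeR adjusted p = 0.00377 in WENR-plus, 1.32 ± 0.38, edgeR adjusted p = 0.0211 in WENR-minus). The call of Cyp2s1 was lost on withdrawal in proximal Scramble-sgRNA organoids without WENR-minus replicate 1 or WENR-plus replicate 2 (edgeR adjusted p up to 0.0747). That of Cyp2s1 was also lost between guides in proximal WENR-minus organoids without Scramble-sgRNA replicate 2 or Cdx2-sgRNA replicate 2 (edgeR adjusted p up to 0.144). Cyp2s1 further lost it between regions in Cdx2-sgRNA WENR-plus organoids without distal replicate 1 or 2 or proximal replicate 2 (edgeR adjusted p up to 0.103).

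**Figure D4:**
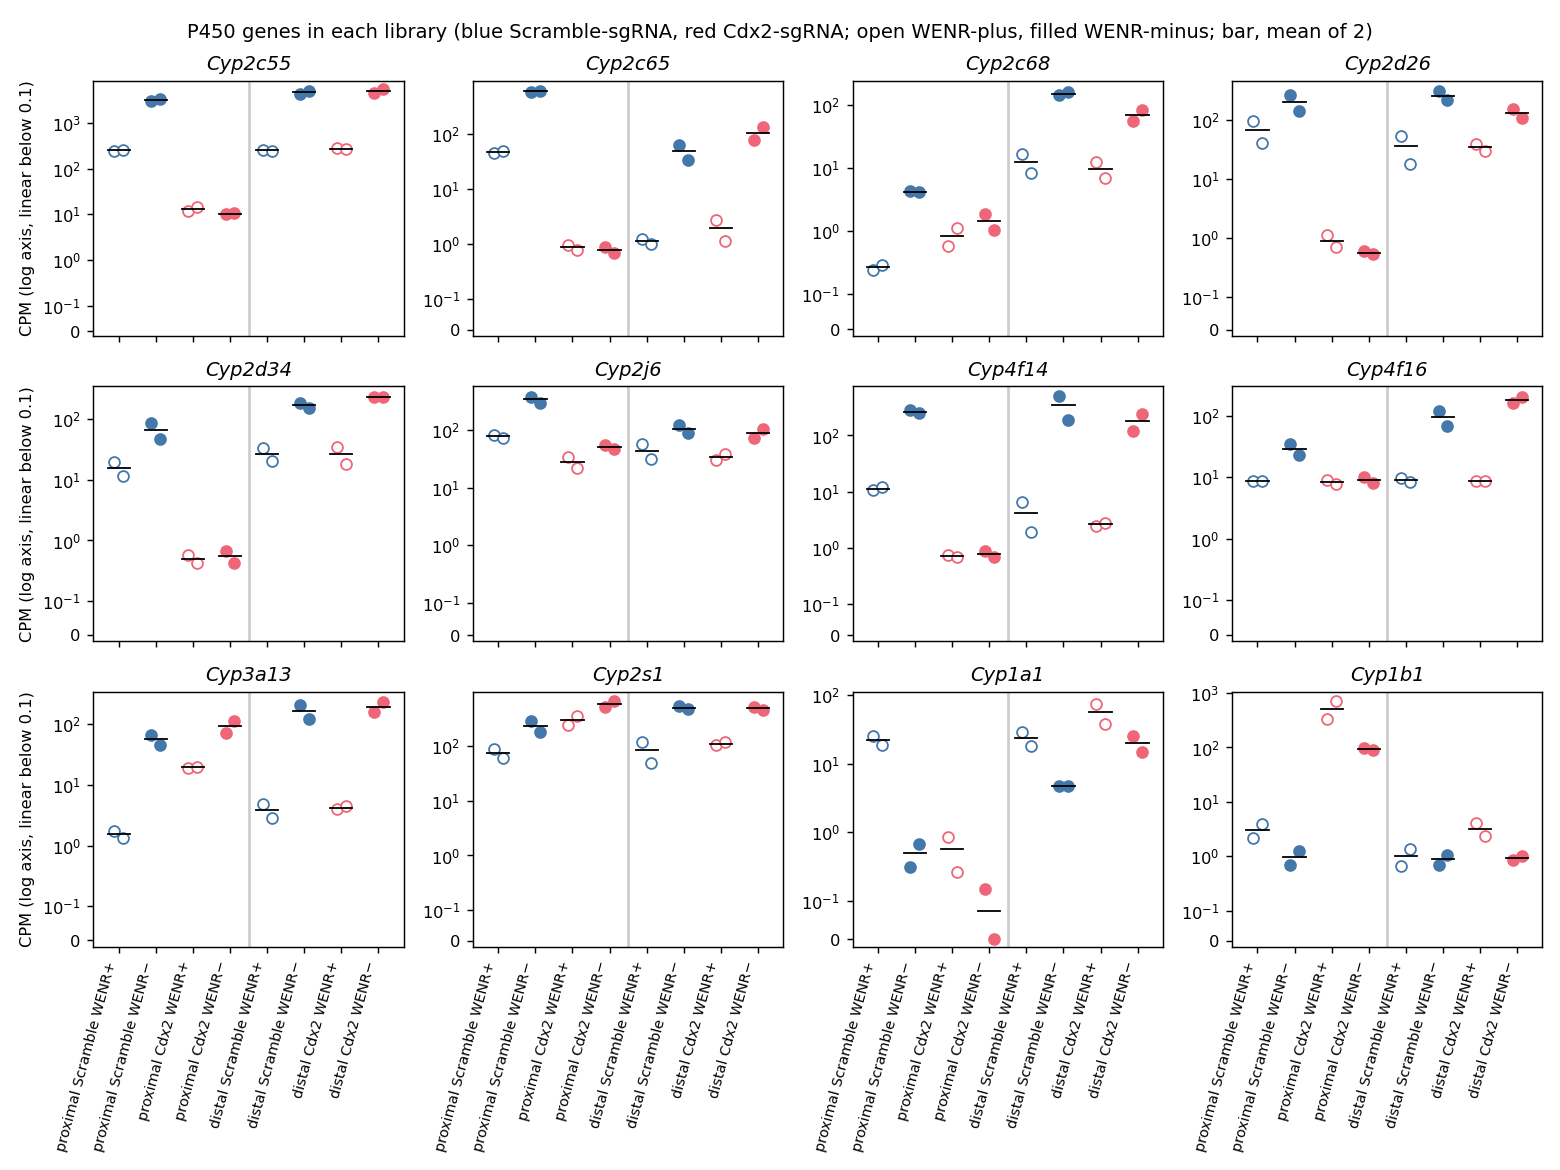
CPM of 12 P450 genes in the 8 groups on a log axis that is linear below 0.1. Points are single libraries, blue for Scramble-sgRNA and red for Cdx2-sgRNA, open for WENR-plus and filled for WENR-minus, and bars are means of 2. Cyp1b1 reaches 328 and 706 CPM in WENR-plus proximal Cdx2-sgRNA organoids and at most 4.01 CPM outside the proximal Cdx2-sgRNA groups.

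Several members were distal or rested on few libraries. Cyp2b10, a target of CAR, measured 1.82 and 1.89 in WENR-plus and 2.11 and 3.02 in WENR-minus proximal Scramble-sgRNA organoids, in CPM, and 3.19 and 16.8 in WENR-plus and 7.35 and 5.92 in WENR-minus proximal Cdx2-sgRNA organoids. Distal levels of Cyp2b10 were 2.85 and 3.92 in WENR-plus and 14.8 and 22.9 in WENR-minus distal Scramble-sgRNA organoids, and 4.24 and 5.39 in WENR-plus and 42.2 and 73.6 in WENR-minus distal Cdx2-sgRNA organoids. It rose on withdrawal in distal organoids with either guide (2.47 ± 0.60, edgeR adjusted p = 0.00652 Scramble-sgRNA, 3.58 ± 0.61, edgeR adjusted p = 0.000582 Cdx2-sgRNA). In WENR-plus proximal organoids it was called higher with Cdx2-sgRNA (2.43 ± 0.62, edgeR adjusted p = 0.0154), but the log2 fold change was 0.78 without proximal Cdx2-sgRNA replicate 2. The same library carried most reads of 2 further genes. Cyp2f2, known from airway club cells, was 0.986 and 34.9 CPM in WENR-plus and 0.817 and 4.18 CPM in WENR-minus proximal Cdx2-sgRNA organoids and at most 1.46 CPM elsewhere. It measured 0.526 and 0 in WENR-plus and 0.744 and 0.0521 in WENR-minus proximal Scramble-sgRNA organoids, 0.200 and 0 in WENR-plus and 1.46 and 0.932 in WENR-minus distal Scramble-sgRNA organoids, and 0.115 and 0.317 in WENR-plus and 0.0846 and 0.502 in WENR-minus distal Cdx2-sgRNA organoids. Cyp3a57 was 0.232 and 27.8 in WENR-plus and 1.04 and 3.02 in WENR-minus proximal Cdx2-sgRNA organoids, and at most 0.237 CPM elsewhere, with 0 and 0.237 and 0 and 0 CPM in proximal Scramble-sgRNA organoids. Their called differences between guides in WENR-plus (5.98 ± 1.76, edgeR adjusted p = 0.03 for Cyp2f2) shrank to 1.82 for Cyp2f2 and 1.01 for Cyp3a57 without that replicate. Cyp4b1 (0.817 and 23.5 CPM in WENR-minus proximal Cdx2-sgRNA) and Cyp2a5 (0 and 5.02 CPM) were also higher in replicate 2 and were called in no comparison. The call of Cyp2b10 was lost between guides in proximal WENR-plus organoids without Scramble-sgRNA replicate 1 or 2 or Cdx2-sgRNA replicate 2 (edgeR adjusted p up to 0.251). That of Cyp2b10 was also lost between regions in Scramble-sgRNA WENR-minus organoids without proximal replicate 1 or 2 or distal replicate 2 (edgeR adjusted p up to 0.0894). The call of Cyp2f2 was lost between guides in proximal WENR-plus organoids without Scramble-sgRNA replicate 1 or 2 or Cdx2-sgRNA replicate 2 (edgeR adjusted p up to 0.503). The call of Cyp3a57 was lost between guides in proximal WENR-plus organoids without Scramble-sgRNA replicate 1 or 2 or Cdx2-sgRNA replicate 2 (edgeR adjusted p up to 0.695).

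Enzymes of vitamin D, sterols and retinoic acid showed separate patterns. Cyp24a1, the vitamin D catabolic hydroxylase, had no read in WENR-plus distal organoids and 1.39 and 1.43 CPM in WENR-minus with Scramble-sgRNA and 5.16 and 4.18 CPM with Cdx2-sgRNA, while the 8 proximal libraries held at most 0.223 CPM. This is at least 18.1-fold higher on withdrawal with Scramble-sgRNA (edgeR adjusted p = 0.00409) and at least 56.6-fold higher with Cdx2-sgRNA (edgeR adjusted p = 0.000967). Cyp39a1, which hydroxylates an oxysterol on the way to bile acids, measured 22.0 and 15.3 in WENR-plus and 10.3 and 8.49 in WENR-minus proximal Scramble-sgRNA organoids, and 20.2 and 23.5 in WENR-plus and 21.8 and 18.2 in WENR-minus proximal Cdx2-sgRNA organoids. Distal levels of Cyp39a1 were 14.7 and 17.7 in WENR-plus and 4.00 and 5.66 in WENR-minus distal Scramble-sgRNA organoids, and 8.48 and 15.02 in WENR-plus and 1.78 and 2.01 in WENR-minus distal Cdx2-sgRNA organoids, in CPM. It fell on withdrawal in distal organoids (-1.74 ± 0.30, edgeR adjusted p = 0.000949 Scramble-sgRNA, -2.63 ± 0.33, edgeR adjusted p = 7.32e-05 Cdx2-sgRNA) and was higher with Cdx2-sgRNA in WENR-minus proximal organoids (1.09 ± 0.29, edgeR adjusted p = 0.0154), but lower with it in distal ones (-1.35 ± 0.33, edgeR adjusted p = 0.0284). The difference of these guide effects was 2.44 ± 0.44, edgeR adjusted p = 0.00405. Cyp27a1, a sterol hydroxylase, had no read in proximal Scramble-sgRNA and 4.99 and 1.11 CPM in proximal Cdx2-sgRNA WENR-plus organoids (at least 37.3-fold higher, edgeR adjusted p = 0.0495). The call of Cyp39a1 was lost between guides in proximal WENR-minus organoids without Cdx2-sgRNA replicate 1 or Scramble-sgRNA replicate 2 (edgeR adjusted p up to 0.1). That of Cyp39a1 was also lost between guides in distal WENR-minus organoids without Cdx2-sgRNA replicate 1 or 2 or Scramble-sgRNA replicate 2 (edgeR adjusted p up to 0.193). The call of Cyp27a1 was lost between guides in proximal WENR-plus organoids without any 1 of the 4 libraries (edgeR adjusted p up to 0.183). The call of Cyp24a1 was lost between regions in Scramble-sgRNA WENR-minus organoids without any 1 of the 4 libraries (edgeR adjusted p up to 0.184).

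Cyp26b1, which degrades retinoic acid, was a proximal gene. It measured 11.3 and 9.71 in WENR-plus and 10.5 and 19.9 in WENR-minus proximal Scramble-sgRNA organoids, in CPM, and 3.65 and 2.43 in WENR-plus and 2.67 and 3.33 in WENR-minus proximal Cdx2-sgRNA organoids. Distal levels of Cyp26b1 were 1.30 and 0.430 in WENR-plus and 1.92 and 1.43 in WENR-minus distal Scramble-sgRNA organoids, and 0.516 and 0.476 in WENR-plus and 2.54 and 0.753 in WENR-minus distal Cdx2-sgRNA organoids. Proximal against distal Scramble-sgRNA organoids gave 3.58 ± 0.60, edgeR adjusted p = 0.0113, in WENR-plus and 3.17 ± 0.58, edgeR adjusted p = 0.00741, in WENR-minus, and Cdx2-sgRNA lay below Scramble-sgRNA in proximal organoids (-1.79 ± 0.54, edgeR adjusted p = 0.0334 and -2.33 ± 0.55, edgeR adjusted p = 0.00829). In distal Cdx2-sgRNA organoids the call of Cyp26b1 on withdrawal was lost with the replicate number as a block (edgeR adjusted p = 0.0505 in place of 0.0451). Cyp11a1, which cuts the side chain of cholesterol, was found in distal organoids, at 1.00 and 1.94 CPM in WENR-plus Scramble-sgRNA, and had no read in the proximal libraries of the same medium (no test, since the distal group chose it). Cyp20a1, an orphan P450, measured 18.6 and 16.3 in WENR-plus and 11.8 and 16.3 in WENR-minus proximal Scramble-sgRNA organoids, and 23.3 and 22.4 in WENR-plus and 18.4 and 13.96 in WENR-minus proximal Cdx2-sgRNA organoids. Distal levels of Cyp20a1 were 15.1 and 15.1 in WENR-plus and 7.85 and 7.03 in WENR-minus distal Scramble-sgRNA organoids, and 20.8 and 17.6 in WENR-plus and 9.65 and 3.93 in WENR-minus distal Cdx2-sgRNA organoids. It fell on withdrawal in distal organoids (-1.02 ± 0.33, edgeR adjusted p = 0.0274 Scramble-sgRNA, -1.50 ± 0.33, edgeR adjusted p = 0.00307 Cdx2-sgRNA). Without distal Cdx2-sgRNA WENR-minus replicate 1 the latter was -2.28, and without replicate 2 it was -0.94. Cyp2u1, a fatty acid hydroxylase, reached at most 1.85 CPM and was 46.3-fold (95% counting interval 7.77 to 1882) lower in proximal than in distal WENR-minus Cdx2-sgRNA organoids (edgeR adjusted p = 0.00442). The call of Cyp26b1 was lost between guides in proximal WENR-plus organoids without any 1 of the 4 libraries (edgeR adjusted p up to 0.174). That of Cyp26b1 was also lost between guides in proximal WENR-minus organoids without Cdx2-sgRNA replicate 1 or Scramble-sgRNA replicate 2 (edgeR adjusted p up to 0.0596). Cyp26b1 further lost it between regions in Scramble-sgRNA WENR-plus organoids without proximal replicate 1 or distal replicate 2 (edgeR adjusted p up to 0.0749). Another call of Cyp26b1 was lost between regions in Scramble-sgRNA WENR-minus organoids without proximal replicate 2 or distal replicate 2 (edgeR adjusted p up to 0.0748). For Cyp26b1 it was lost too on withdrawal in distal Cdx2-sgRNA organoids without WENR-plus replicate 1 or 2 or WENR-minus replicate 1 (edgeR adjusted p up to 0.546). The call of Cyp20a1 was lost on withdrawal in distal Scramble-sgRNA organoids without any 1 of the 4 libraries (edgeR adjusted p up to 0.126). That of Cyp20a1 was also lost on withdrawal in distal Cdx2-sgRNA organoids without WENR-minus replicate 2, where the log2 fold change was under 1 in size.

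Genes that serve or control P450s were read as lists. Of 7 redox partners, 1 rose and 0 fell on withdrawal in proximal Scramble-sgRNA organoids, 2 and 0 in distal Scramble-sgRNA, 1 and 1 in distal Cdx2-sgRNA and 1 and 1 in proximal Cdx2-sgRNA organoids. In the same order 17, 26.4, 33.1 and 6.4% of all genes were called in either direction. Por, the oxidoreductase that feeds electrons to microsomal P450s, rose in all 4 (log2 fold changes 1.43 ± 0.22, 1.82 ± 0.23, 1.90 ± 0.23, 1.07 ± 0.22, edgeR adjusted p from 5.57e-05 to 0.0112). Of 8 genes of haem synthesis, Alas1, the first enzyme of the pathway, rose on withdrawal in proximal Scramble-sgRNA (1.18 ± 0.31, edgeR adjusted p = 0.016) and in proximal Cdx2-sgRNA organoids (1.15 ± 0.31, edgeR adjusted p = 0.0329), and no other of them was called there. Of 16 regulators 15 were tested. With Cdx2-sgRNA in WENR-minus proximal organoids 1 was higher, Ahr, and 8 were lower (background 21.2%, 9.04% higher and 12.1% lower). The 4 largest changes were Nr5a2 (-7.83 ± 0.29, edgeR adjusted p = 4.22e-08), Vdr (-6.89 ± 0.49, edgeR adjusted p = 3.01e-06), Ppara (-5.12 ± 1.19, edgeR adjusted p = 0.00771), Nr1i2 (-3.06 ± 0.26, edgeR adjusted p = 9.79e-06). In WENR-plus proximal organoids 1 was higher and 6 lower (background 15.9%, 6.93% higher and 8.94% lower), and Ahr was higher there as well (2.85 ± 0.37, edgeR adjusted p = 0.00034). In distal organoids Cdx2-sgRNA changed 1 upward and 1 downward in WENR-minus (background 5.25%) and none in WENR-plus (background 0.262%) by edgeR. On withdrawal 4 rose and 0 fell in proximal Scramble-sgRNA (background 17%, 8.73% higher and 8.24% lower) and 6 rose and 1 fell in distal Scramble-sgRNA organoids (background 26.4%, 12.2% higher and 14.2% lower). Those that rose in the latter included Nr1i3 (3.83 ± 0.49, edgeR adjusted p = 0.000169), Hnf4a (1.85 ± 0.30, edgeR adjusted p = 0.000581) and Rxra (1.65 ± 0.25, edgeR adjusted p = 0.000463). In WENR-plus and WENR-minus the 16 regulators summed to 681 to 729 and 1509 to 1812 CPM in proximal Scramble-sgRNA organoids. Distal Scramble-sgRNA sums were 753 to 932 and 2337 to 2368 CPM. With Cdx2-sgRNA the sums were 361 to 450 and 490 to 558 CPM in proximal and 726 to 829 and 2993 to 3347 CPM in distal organoids. Among the 3 P450 genes whose symbols fall outside the naming pattern, 1 was tested: Cyp51, of cholesterol synthesis, rose on withdrawal in proximal (1.26 ± 0.30, edgeR adjusted p = 0.00938) and distal Scramble-sgRNA organoids (1.45 ± 0.30, edgeR adjusted p = 0.00283).

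Withdrawal effects were compared between guides within each region. In proximal organoids the log2 change on withdrawal was lower with Cdx2-sgRNA than with Scramble-sgRNA for 6 members, namely Cyp2c55, Cyp2c65, Cyp2c68, Cyp3a13, Cyp4f14 and Cyp4f16 (background 3.6%, 1.67% higher and 1.93% lower). With the replicate number as a block the count was 10, by DESeq2 11, and Cyp2c55 was the member that held whichever library was left out. Counts of 1 or 2 were left without proximal Scramble-sgRNA WENR-plus replicate 1 or 2, WENR-minus replicate 1, or proximal Cdx2-sgRNA WENR-plus replicate 1 or 2 or WENR-minus replicate 2. In distal organoids edgeR called none (background 0%, 0% higher and 0% lower), with 2 members at an unadjusted p under 0.05 and 0 by DESeq2. The region effect did not pass the threshold of change between media for any member with Scramble-sgRNA by edgeR (background 0.0719%, 0.0327% higher and 0.0392% lower), with 9 at an unadjusted p under 0.05 and 2 called by DESeq2.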

How the data were processed

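RNA of 16 organoid cultures was made into SMARTer stranded total RNA libraries and read on a HiSeq. The authors quantified reads with Salmon 1.1.0 on GENCODE vM23 transcripts. The deposited values are estimated counts per transcript, not scaled between libraries, with TPM that the authors' Salmon run computed and effective lengths. Here 139864 of 140748 transcripts were matched to GENCODE vM21 on GRCm38, an earlier release, and summed to 54123 genes. The other 884 held at most 0.509% of a library. Totals were 12465194 to 18922143 counts (median 16836530), with 15.5 to 28.0% from mitochondrial ribosomal RNA. Gene sums were rounded and tested in R 4.3.3 with edgeR 4.0.16 (filterByExpr, TMM, quasi-likelihood, prior count 0.125, 1 coefficient per group over all 16 libraries, 8 residual degrees of freedom). P-values were adjusted by Benjamini-Hochberg over 15289 genes in each of 17 contrasts, 12 between groups and 5 between effects, and genes past 0.05 with a log2 fold change over 1 in size were called. CPM are TMM-scaled, and the SE is the size of the log2 fold change over the root of F. A group with 0 reads was set to 3 counts over the group, and with 1 to 3 reads the ratio has a 95% exact interval, which covers counting error only. Both replicates of a group are organoids of different mice, and no source ties equal numbers to 1 mouse across groups. Alternatives were DESeq2 1.42.0 and its size factors, other filters, length-scaled counts, no mitochondrial genes, no fold threshold, only the libraries compared, the replicate number as block, and each library left out. The test was also run on simulated data, with no result given here. Cdx2 was read first. Values in every library are given for called members with at least 5 CPM in their highest group and for the 5 members with the highest TPM. Other called members have values in the comparison that called them, and list genes at most 4 values. Members and lists were chosen with earlier results of these data known. Promoters are those of RefSeq on GRCm38.p6, the motifs having been chosen after the data were seen, and shared words of 31 bases were counted on GENCODE vM21 transcripts.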

Additional observations from a re-analysis of the deposited data

Results flagged for a closer look

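The effect of Cdx2-sgRNA, tested as a difference between the regions with edgeR, separated proximal from distal organoids for 16 members in WENR-minus medium, leaving out Cyp2c66, which was chosen through 1 of the groups compared and gets no test. The log2 differences, proximal minus distal, were for Cyp1b1 (6.51), Cyp2c55 (-8.36), Cyp2c65 (-10.72), Cyp2d10 (-6.61), Cyp2d26 (-7.48), Cyp2d34 (-7.40), Cyp2j6 (-2.51), Cyp39a1 (2.44), Cyp4f14 (-7.48) and Cyp4f16 (-2.60). For members with a group of 3 reads or fewer the adjusted p is given in place of the fitted difference, which was for Cyp1a1 (0.0175), Cyp2d12 (0.00346), Cyp2d9 (0.000433), Cyp2j9 (0.0103), Cyp2u1 (0.0415) and Cyp4f40 (0.00151). Cyp1b1 and Cyp39a1 had positive differences and the others printed here negative ones. Of the 16, 14 held whichever library was left out. The call of Cyp1a1 was lost for the regional difference of guide effects in WENR-minus without proximal Scramble-sgRNA WENR-minus replicate 2 or proximal Cdx2-sgRNA WENR-minus replicate 2 (edgeR adjusted p up to 0.0959). The call of Cyp2u1 was lost for the regional difference of guide effects in WENR-minus without each of 7 of the 8 libraries (edgeR adjusted p up to 0.576).

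In WENR-plus medium the same test separated the regions for 9 members. The log2 differences were for Cyp1a1 (-6.53), Cyp1b1 (5.75), Cyp2c55 (-4.38), Cyp2c65 (-6.54), Cyp2d26 (-6.15), Cyp2d34 (-4.94) and Cyp3a13 (3.50), and the edgeR adjusted p was for Cyp2d9 (0.0422) and Cyp4f40 (0.0286). Cyp3a13 and Cyp1b1 had positive differences in this medium. Of the 9, 7 held whichever library was left out. The call of Cyp2d9 was lost for the regional difference of guide effects in WENR-plus without each of 6 of the 8 libraries (edgeR adjusted p up to 0.127). The call of Cyp4f40 was lost for the regional difference of guide effects in WENR-plus without each of 6 of the 8 libraries (edgeR adjusted p up to 0.102).

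The change on factor withdrawal differed between Cdx2-sgRNA and Scramble-sgRNA in proximal organoids for 6 members, with log2 differences for Cyp2c55 (-4.00), Cyp2c65 (-3.85), Cyp2c68 (-3.24), Cyp3a13 (-2.93), Cyp4f14 (-4.43) and Cyp4f16 (-1.60). Of the 6, 1 (Cyp2c55) held whichever library was left out. The call of Cyp2c65 was lost for the difference of withdrawal effects without each of 6 of the 8 libraries (edgeR adjusted p up to 0.0695). The call of Cyp2c68 was lost for the difference of withdrawal effects without each of 7 of the 8 libraries (edgeR adjusted p up to 0.174). The call of Cyp3a13 was lost for the difference of withdrawal effects without proximal Scramble-sgRNA WENR-plus replicate 1 or 2 or proximal Scramble-sgRNA WENR-minus replicate 1 (edgeR adjusted p up to 0.0758). The call of Cyp4f14 was lost for the difference of withdrawal effects without each of 7 of the 8 libraries (edgeR adjusted p up to 0.112). The call of Cyp4f16 was lost for the difference of withdrawal effects without each of 7 of the 8 libraries (edgeR adjusted p up to 0.136). Groups of 2 libraries are too small for a search for outlying samples.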

How the results depend on the processing

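Counts of called members moved by over 1.5 times under these alternatives, with the cause not tested except where stated. With a filter of at least 10 counts in every library, which leaves fewer genes tested, the counts were for withdrawal in proximal Scramble-sgRNA (18 to 9), withdrawal in proximal Cdx2-sgRNA (2 to 1), withdrawal in distal Scramble-sgRNA (22 to 11), withdrawal in distal Cdx2-sgRNA (22 to 11), guides in proximal WENR-minus (19 to 7), guides in proximal WENR-plus (20 to 7), regions in Scramble-sgRNA WENR-minus (15 to 5), regions in Scramble-sgRNA WENR-plus (4 to 1), regions in Cdx2-sgRNA WENR-minus (24 to 8), regions in Cdx2-sgRNA WENR-plus (18 to 3), guide effect between regions in WENR-minus (17 to 6) and guide effect between regions in WENR-plus (9 to 3). With no filter on low counts they were for withdrawal in proximal Cdx2-sgRNA (2 to 6), guides in distal WENR-minus (3 to 9), guides in distal WENR-plus (0 to 3), regions in Scramble-sgRNA WENR-plus (4 to 11), guide effect between regions in WENR-plus (9 to 21), withdrawal effect between proximal guides (6 to 13) and region effect between media (0 to 8). DESeq2 gave for guides in distal WENR-minus (3 to 6), regions in Scramble-sgRNA WENR-plus (4 to 8), withdrawal effect between proximal guides (6 to 11) and region effect between media (0 to 2). Fitting only the libraries compared gave for withdrawal in proximal Cdx2-sgRNA (2 to 0), a fit that called 0 of all 13518 genes. With the replicate number as a block (replicate block, 1 shift for replicate 2 shared by all groups), counts moved for guides in distal WENR-minus (3 to 5) and withdrawal effect between proximal guides (6 to 10). The block changed the call of 1 of 199 called values, that of Cyp26b1 on withdrawal in distal Cdx2-sgRNA organoids. Deviations from group means correlated at r = 0.281 to 0.589 between media of 1 region and guide, and at -0.059 to 0.189 between other groups with equal numbers. Neither the main test nor the block takes up this tie between media, and a fit that pairs them was not run. With 1 library left out, when the lone sample is assumed to vary like the other groups, the ranges were for withdrawal in proximal Cdx2-sgRNA (2 to 4, from 2), guides in proximal WENR-plus (11 to 15, from 20), guides in distal WENR-minus (0 to 3, from 3), regions in Scramble-sgRNA WENR-minus (7 to 11, from 15), regions in Scramble-sgRNA WENR-plus (2 to 3, from 4) and withdrawal effect between proximal guides (1 to 6, from 6). Over all alternatives, 2151 of 2387 values of called members kept their direction and side of the threshold, 236 fell short of it, most of these with 1 library left out, and none (0) reversed. Members under about 1 CPM rest on few reads, and no depth here separates their absence from a low level.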
